A study of Mus musculus with 2 samples.

Results

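The genes described here encode the nuclear subunits of the mitochondrial respiratory chain and of the ATP synthase, together with assembly factors that share their symbol prefixes. They were found by name, as the mouse genes whose RefSeq symbol begins with Nduf, Sdh, Uqcr, Cox4, Cox5, Cox6, Cox7, Cox8 or Atp5. The array named 93 of them among 17176 genes in all, through 118 of its 41174 probes. Assigned to complexes by symbol alone, these were 36 subunits of complex I, 4 of complex II, 8 of complex III, 18 of complex IV and 17 of complex V. The other 10 were assembly factors of complexes I and II. A further 7 protein-coding genes under the same prefixes had no named probe, Ndufa4l2, Ndufa11, Ndufb1, Ndufb4b, Ndufb4c, Ndufaf2 and Ndufaf8. The mitochondrially encoded subunits were not analysed here.

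The study set CD4+ helper T cells against CD8+ cytotoxic T cells, each labelled as sorted splenocytes of wild-type C57B6 mice with no treatment named. The RNA of each cell type went onto 1 Agilent expression array read in 1 colour, and the sources used here do not give the number of animals behind it. With 1 array per cell type there was no replicate and no test, so every difference below describes these arrays. In such bulk RNA, fewer cells of a type and less RNA per cell cannot be told apart.

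The respiratory chain passes electrons from NADH (complex I) and succinate (complex II) through complex III and cytochrome c to oxygen at complex IV, and complexes I, III and IV pump protons as they do so. ATP synthase, complex V, uses the proton gradient to make ATP. Resting T cells are known to draw mainly on this route, while activated effector cells add a large glycolytic flux. Several complex IV subunits exist as paired isoforms, of which a form found in most tissues is replaced by another in muscle, lung or testis.

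The non-control spots well above background made up 63.1% of all on the array of CD4+ cells and 58.6% for CD8+ cells. Of the T cell markers, Cd3d, Cd3e and Cd3g, chains of the T cell receptor complex, were well above background on both arrays. Cd8a was 105.6-fold higher on the CD8+ array (534.7 in CD4+ and 49982 in CD8+ cells). Cd4 was 4.12-fold higher on the CD4+ array (307.4 and 67.1). Both directions went with the labels, but on the CD4+ array the Cd8a signal was above that of Cd4. Whether the cells or the probes account for this was not tested. Markers of other cells also differed. All 4 measured dendritic, 3 NK and 4 plasma cell markers were higher on the CD4+ array, with median log2 differences of -1.98, -2.14 and -0.63, and all 5 B cell markers and both platelet markers measured on both arrays were higher on the CD8+ array, with medians of 0.76 and 0.68. With normexp or the series values 1 B cell and 1 plasma cell marker turned. The medians with normexp were -1.23 for dendritic, -1.21 for NK and 0.45 for B cell markers. With the series values they were -1.44, -1.21 and 0.47. The plasma cell median moved the other way, to -0.71 and -0.73. Of the 4 myeloid markers measured, 3 were higher on the CD4+ array (median -0.83; 2 with normexp, quantile or median scaling or the series values), and the 2 erythroid ones had a median of -0.14. All 6 markers of cycling cells were higher on the CD4+ array (median -0.78). The part of such cells in the values below was not tested.

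Levels are the processed signal, a spot's Cy3 brightness after background subtraction by the scanner software, on a linear scale. Differences are log2 values of the CD8+ array minus the CD4+ array after each array was scaled to its 75th percentile, so that a negative value means a higher level in CD4+ cells. That percentile was a signal of 508.4 for CD4+ cells and 449.9 for CD8+ cells. An unscaled signal therefore has to be somewhat lower on the CD8+ array for a difference of 0. The only error available was technical. The software's own error of a signal gave the log2 difference of a gene an error of 0.20 in the median. The lowest was also 0.20, so for most members this error is nearly constant and is not a measured spread. Replicate spots of 1 probe differed with an SD of 0.16 (158 probes) in that difference. Different probes of 1 gene differed with an SD of 0.23 (3972 genes), or 0.14 with brighter probes alone (1428 genes). Over the 19 respiratory chain genes with several probes, the SD between probes was 0.12.

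Transcripts of the respiratory chain were at nearly equal levels in the CD4+ and CD8+ arrays, with the exception of Cox6a2. Of the 93 genes, 90 were well above background on both arrays, 0 on only 1 of them and 3 on neither. The 90 genes had a median difference of 0.03 with an interquartile range from -0.06 to 0.14, while 0.02 was the median of the 11957 named genes measured on both arrays, with a range from -0.18 to 0.20. No member was at least 1.5-fold higher on the CD8+ array, where 5.50% of all named genes were, and 1 of 90 was at least 1.5-fold higher on the CD4+ array, where 8.54% were. At 2-fold the counts were the same, 0 and 1, beside 1.94% and 3.83% of all genes. The other 89 lay within 1.5-fold, and no member but Cox6a2 passed 1.5-fold in any of the 11 alternatives of scaling, probe choice or filter.

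A milder limit left few more. At least 25% higher on the CD8+ array were 3 members (14.6% of all genes), and at least 25% higher on the CD4+ array also 3 (16.5% of all genes). Most respiratory chain probes were bright, and bright probes vary less. With the array's 75th percentile required on both arrays, 85 members remained, of which 4 were at least 25% apart, 2 in each direction, beside 12.0% of the 6479 equally filtered genes in the CD8+ direction and 8.13% in the CD4+ direction. At 1.5-fold it was 0 of these 85 in either direction, beside 3.18% and 3.16%. The interquartile range of the difference was 0.20 for these members and 0.29 for those genes. This filter sets a floor and does not match the genes by brightness. The floor was a signal of 508.4 for CD4+ and 449.9 for CD8+ cells. The 90 measured members had median signals of 9418 and 8864. The part of brightness in the narrower range was not tested.

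**Figure D1:**
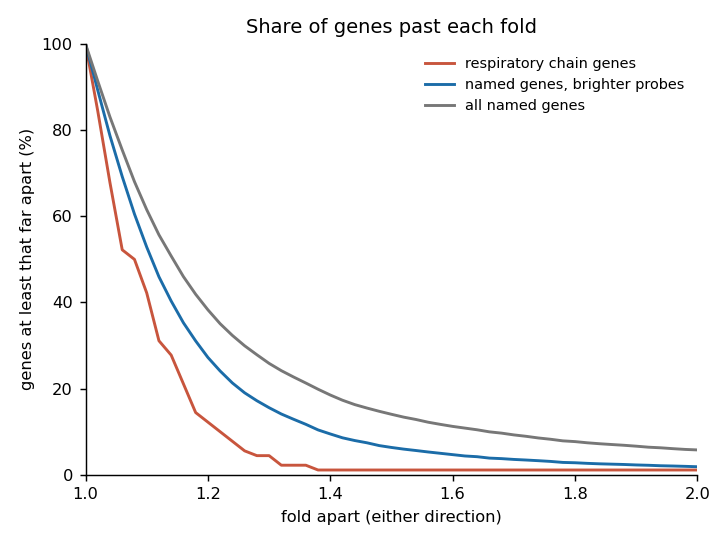
Share of genes (%, vertical axis) at least a given fold apart in either direction (horizontal axis), for the 90 respiratory chain genes, the 6479 genes with brighter probes and all 11957 named genes measured on both arrays. The respiratory chain line lies below both others from just above 1-fold onward and stays at 1.11% (Cox6a2 alone) from 1.38-fold on. The sets are not matched for brightness.

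The sign of these small values rested on the scaling. In the main setting 56 of 90 members (62.2%) were higher on the CD8+ array, beside 53.7% of all genes. Scaling each array to its median made it 77 of 90, beside 71.5% of all genes, and quantile normalization 37 of 90, beside 53.4%. The members' median was -0.03 after quantile normalization or loess, and -0.01 when the percentile came from detected probes. Relative to the median of all genes, the members' median stayed between -0.05 and 0.01 in every setting run.

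**Figure D2:**
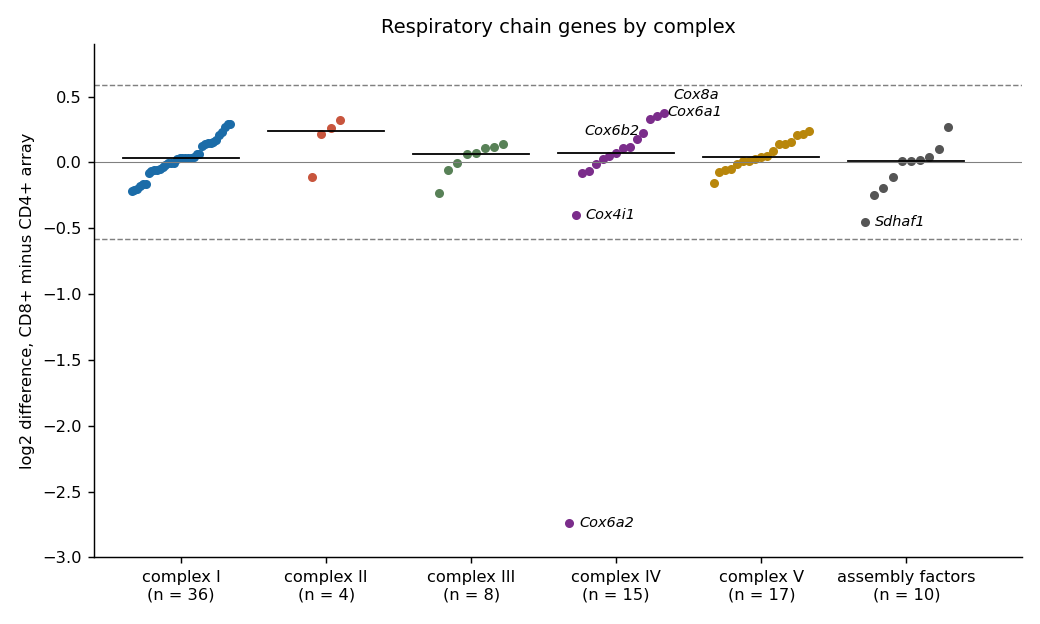
Log2 difference (CD8+ minus CD4+ array) of each gene measured on both arrays, 1 point per gene, ordered within its complex. Black bars are medians, dashed lines mark 1.5-fold and genes at least 25% apart are named. Cox6a2, at -2.74, is the only point outside the dashed lines.

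Complex I, the NADH dehydrogenase, is the largest group. All 36 of its named subunits were well above background on both arrays, with processed signals in CD4+ cells from 1652 to 67168, and none was 25% apart. The median difference was 0.03. The extremes were Ndufa10, an accessory subunit, at 0.29 (a signal of 3199.8 in CD4+ cells and 3463 in CD8+ cells) and Ndufb8, an accessory subunit of the membrane arm, at -0.21 (19851 and 15147). Ndufa6, another accessory subunit, had 0.29 (7036 and 7612). All of these differences were within 1.5 times the software error of 0.20.

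Within complex I, the 7 nuclear core subunits, which hold the flavin and the iron-sulphur clusters, had a median of 0.17 (0.12 to 0.31 over the alternatives), and 6 of them were higher on the CD8+ array in every setting run. Ndufs8, an iron-sulphur subunit, stood at 0.27 (1652 and 1759), Ndufs7 at 0.21 (9317 and 9509) and Ndufv1, the subunit that binds NADH, at 0.17 (8278 and 8237). Ndufv2, the partner of Ndufv1, was the exception at -0.16 (5105 and 4044). The 29 accessory subunits had a median of -0.00, 14 higher on the CD8+ array and 15 on the CD4+ array. These 29 count Ndufa4 by its symbol, and the median is the value of that gene. Ndufs4, an accessory subunit near the NADH-oxidising end, had -0.21 (12715 and 9746) and Ndufb7 -0.20 (26634 and 20523). This division into core and accessory subunits was made after the values were seen, so the medians are a description.

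Ndufv3, an accessory subunit for which splice forms of different length are known, was the only member whose probes disagreed by more than 0.5. Its brightest probe gave -0.16 (8017 in CD4+ and 6348 in CD8+ cells). The dimmer probes gave 0.20 (330.3 and 336.4) and 0.47 (304.6 and 374.6). The mean over the 3 probes was 0.17, so the sign for this gene depended on the probe.

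**Figure D3:**
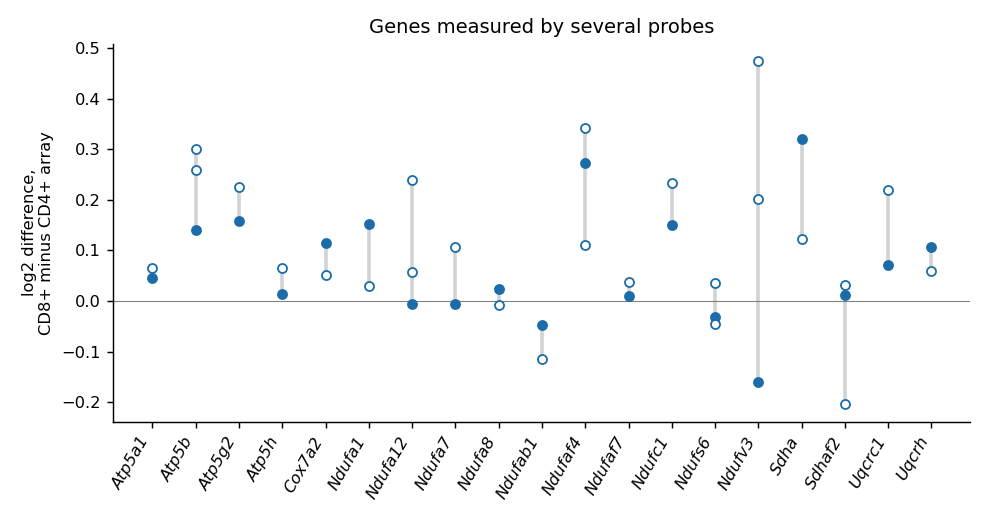
Log2 difference (CD8+ minus CD4+ array) by probe for the 19 respiratory chain genes with 2 or 3 probes well above background on both arrays; filled points are the brightest probe, used for the gene, and open points its other probes. The probes of a gene spanned 0.08 in the median and had the same sign in 13 of 19 genes, and Ndufv3 spans 0.64.

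Complex II, succinate dehydrogenase, also works in the tricarboxylic acid cycle, and all of its 4 subunits are nuclear. Its median of 0.24 was the highest of the complexes, and it was positive in each of the 11 alternatives, from 0.14 to 0.38. Sdha, the flavoprotein that oxidises succinate, had 0.32 by its chosen probe (2148 in CD4+ and 2373 in CD8+ cells) and 0.12 by another of nearly the same brightness. The membrane anchors Sdhd and Sdhc had 0.26 (8123 and 8605) and 0.22 (3550 and 3650). Sdhb, the iron-sulphur subunit, lay on the other side at -0.11 (9315 and 7626), a sign that turned with median scaling. All 4 were less than 25% apart.

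Assembly factors of complex II were also among the members. Sdhaf1, which serves the iron-sulphur subunit Sdhb, had the most negative difference of all members after Cox6a2, at -0.45, or 1.37-fold higher on the CD4+ array. Its signal was 2394 ± 239 (software error, 1 spot) in CD4+ cells and 1551 ± 155 in CD8+ cells, and the difference ran from -0.55 to -0.31 over the alternatives. Sdhaf4 had -0.20 (3191 and 2467). Sdhaf2, which attaches flavin to Sdha, had 0.01 by its chosen probe (4132 and 3688), with its other probes at 0.03 and -0.20. Sdhaf3 was near 0, at 0.04 (147.9 and 134.7).

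The complex I assembly factors showed no common direction, with a median of 0.01 over 6 genes. Ndufaf4 had 0.27 (2559 and 2736) while Ndufaf3, which is known to act with it at an early step, had -0.25 (1611 and 1199). Ndufaf6 had 0.10 (697.9 and 662.6) and Ndufaf5 -0.11 (628.1 and 514.5). Ndufaf1 and Ndufaf7 were at 0.02 (1701 and 1522) and 0.01 (2650 and 2362).

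Complex III carries electrons from ubiquinol to cytochrome c. Its 8 named subunits had a median of 0.07 and none was 25% apart. Uqcrq, a small subunit at the membrane, had the most negative value, -0.23 (27956 in CD4+ and 21072 in CD8+ cells), and kept its sign in all 11 alternatives. Uqcr11 and Uqcr10, also small subunits, followed at -0.06 (11042 and 9387) and -0.00 (19852 and 17553). The core proteins Uqcrc2 and Uqcrc1 had 0.14 (19486 and 19038) and 0.07 (21532 and 20024), and Uqcrfs1, the Rieske iron-sulphur protein, 0.11 (7308 and 7001). Uqcrb had 0.06 (3479 and 3217). Uqcrh, the hinge protein near cytochrome c1, was measured by a brightest probe saturated on both arrays, at 0.11, and by an unsaturated one at 0.06 (44459 and 40995), so its size rests on the latter.

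The subunits of complex V, the ATP synthase, had small differences as well. All 17 named subunits were measured on both arrays, the median was 0.04, and the values ran from -0.15 to 0.24. Of the catalytic F1 head, Atp5b, the beta subunit, had 0.14 (56024 in CD4+ and 54666 in CD8+ cells), with its other probes at 0.26 and 0.30. Atp5a1, the alpha subunit, had 0.05 (39303 and 35896) and the delta subunit Atp5d 0.24 (4697 and 4894), the highest of the complex. Atp5e, the epsilon subunit, was saturated on the CD4+ array, where its signal of 71048 is a lower bound, and read 63303 on the CD8+ array. The gamma subunit Atp5c1 had -0.01 (62038 and 54453).

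In the membrane part of ATP synthase, Atp5g1, Atp5g2 and Atp5g3 encode the same mature subunit of the rotating ring with different targeting peptides. They had 0.22 (8300.1 and 8537), 0.16 (22738 and 22464) and 0.03 (47296 and 42688). Atp5pb, subunit b of the stalk that holds the head still, was the most negative at -0.15 (28833 and 22954). Of the other stalk subunits, Atp5j had -0.06 (25518 and 21711), Atp5h 0.01 (51164 and 45698) and Atp5o 0.04 (28869.7 and 26251). The small membrane subunit Atp5k had 0.21 (2951 and 3024), and Atp5md -0.07 (11102 and 9353). None was 25% apart.

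Complex IV, cytochrome c oxidase, held 5 of the 6 members at least 25% apart. That share was near that of all genes: 66.7% of its 15 measured genes were less than 25% apart, beside 68.9% of all named genes. The median over its 15 measured genes was 0.07. Cox4i1, the subunit 4 form of most tissues, was 1.32-fold higher on the CD4+ array (-0.40), with signals of 51799.7 ± 5180 in CD4+ cells and 34819 ± 3482 in CD8+ cells. The difference stayed between -0.51 and -0.25 over the alternatives, beside the software error of 0.20. Cox8a, the subunit 8 form of most tissues, went the other way at 0.38 (31365 and 36106), or 1.30-fold. Cox6a1, the subunit 6A form of most tissues, had 0.35 (57580.4 and 65035) but was saturated on both arrays, so its size is not known. Cox6b2, known from testis, had 0.33 at a low signal (190.8 ± 19.3 and 211.7 ± 21.4).

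The other subunits of most tissues differed little. Cox5a had 0.18 (26825 in CD4+ and 26926 in CD8+ cells), Cox7a2 0.11 (5697 and 5456) and Cox6c 0.11 (19879 and 19013). Cox5b had 0.07 (22547 and 20976) and Cox7a2l 0.03 (25049 and 22618). Cox7b, Cox6b1 and Cox7c had -0.01 (8356 and 7343), -0.07 (644.7 and 545.0) and -0.08 (982.3 and 822.3), and each of these signs turned with median scaling. Ndufa4, counted with complex I by its symbol but now known as a complex IV subunit, had -0.00 (20303 and 17913).

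Isoforms known from other tissues were mostly dim or not well above background. Cox7b2 and Cox8c, known from testis, and Cox8b, known from heart and skeletal muscle, were the 3 members well above background on neither array, with signals between 2.64 and 12.1. Cox4i2, known from lung, passed the software's background criterion at signals of only 19.2 and 19.8. Cox7a1, a heart and skeletal muscle form, read 189.9 ± 19.2 in CD4+ and 173.4 ± 17.6 in CD8+ cells, a difference of 0.05.

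**Figure D4:**
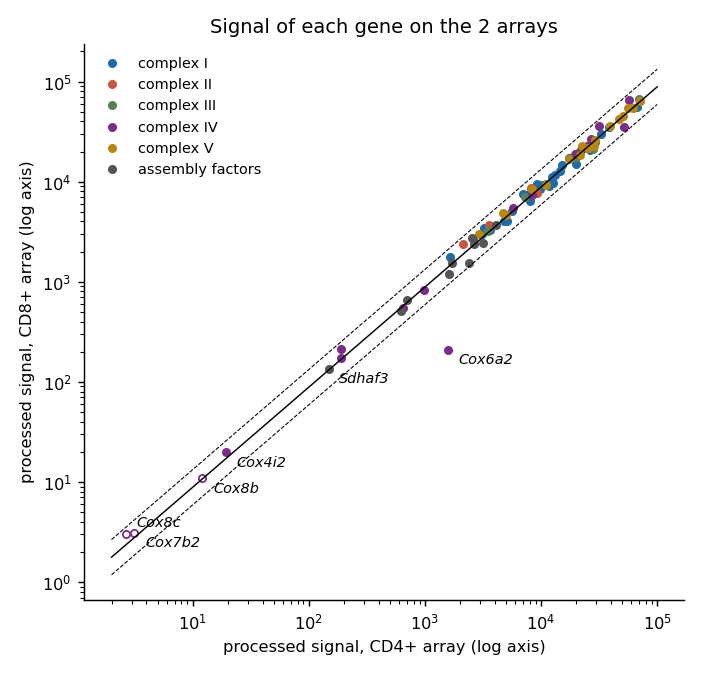
Processed signal of each of the 93 genes on the CD8+ array (vertical, log axis) against the CD4+ array (horizontal, log axis), coloured by complex; open points were not well above background. The solid line is equality after scaling and the dashed lines are 1.5-fold. All genes but Cox6a2 lie between the dashed lines.

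Cox6a2, the subunit 6A form of heart and skeletal muscle, stood apart from the other members. Its signal was 1571 ± 157 (software error, 1 spot of 1 probe) in CD4+ cells and 207.9 ± 21.0 in CD8+ cells, well above background on both. The level was 6.69-fold higher on the CD4+ array, a log2 difference of -2.74 with an error of 0.21, and 33 of the 11957 named genes had a larger difference in that direction. Over the 10 alternatives that kept the gene it ran from -2.79 to -2.54, and from 5.83-fold with normexp to 6.90-fold. It dropped out when brighter probes alone were used, because its CD8+ signal lies below that array's 75th percentile.

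Most muscle genes were not well above background on these arrays. Of 10 striated muscle genes chosen after the Cox6a2 value was seen, 6 were well above background on neither array, among them Ckm (muscle creatine kinase), Acta1 (skeletal actin), Mb (myoglobin) and Actn3. Ckmt2 alone was above background on the CD4+ array and not on the CD8+ array (22.0 and 11.4). The 3 measured on both arrays were Atp2a1 at 0.05 (87.6 and 80.3), Tnnt3 at 0.56 (26.3 and 34.2) and Myh7 at -0.47 (28.5 and 18.2). The summed signal of the list was 198.3 in CD4+ and 183.5 in CD8+ cells. Of the other muscle isoforms, Cox7a1 differed by 0.05 and Cox8b was well above background on neither array, as given above.

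Markers of several other cell types were also higher on the CD4+ array. Of the NK cell markers, Klrb1c was 5.07-fold, Ncr1 4.40-fold and Tyrobp 2.25-fold higher there. The plasma cell marker Prdm1 was 4.87-fold higher, and Xbp1, Jchain and Sdc1 1.66-, 1.44- and 1.37-fold. Of the myeloid markers, Lyz2 was 4.49-fold and Itgam 3.11-fold higher, but S100a8 (-0.03) and Csf1r (0.05, signals of 3790 and 3482) hardly differed. The cycling markers had a median of -0.78. Of 5 dendritic cell markers, all 4 with a named probe were higher on the CD4+ array, with summed signals of 2835 and 904.1. Cd209a, a lectin, read 198.6 and 19.0 (9.25-fold), Itgax (CD11c) 2198 and 785.0 (2.48-fold) and the cytokine receptor Flt3 126.1 and 56.1 (1.99-fold). Siglech, a receptor of plasmacytoid dendritic cells, read 311.8 and 43.9, 6.28-fold higher. Of 10 genes known from plasmacytoid dendritic cells, chosen after the Cox6a2 value was seen and including Siglech, 8 were measured on both arrays and all 8 were higher on the CD4+ array, with a median of -0.23 and summed signals over the 9 genes with a probe of 38191 and 28466. They were split in size. Klk1 read 470.6 and 71.7 (5.81-fold) and the transcription factor gene Tcf4 350.5 and 141.5 (2.19-fold), whereas Bst2, Ly6d, Pacsin1, Irf8 and Spib lay between -0.24 and -0.09, and 1 of the 8 turned with median scaling or the mean over probes. All 4 dendritic markers passed the background criterion on both arrays. On the CD8+ array, however, Cd209a (19.0), Ncr1 (16.4), Itgam (19.2) and Sdc1 (18.8) read about as low as Cox4i2. The size of their folds is therefore uncertain. The part of any of these cell types in the Cox6a2 value was not tested.

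**Figure D5:**
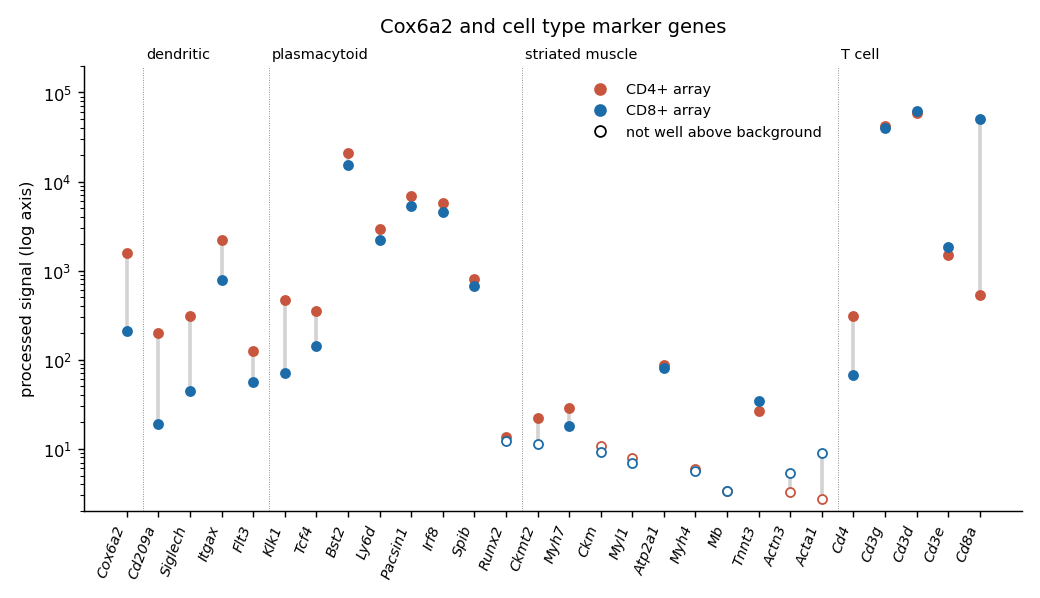
Processed signal (vertical, log axis) of Cox6a2 and of marker genes on the CD4+ (red) and CD8+ (blue) arrays; open points were not well above background, and Siglech is drawn once, with the dendritic markers. Cox6a2, Cd209a, Siglech and Klk1 are at least 5.81-fold higher on the CD4+ array. Itgax, Tcf4 and Flt3 are 1.99- to 2.48-fold higher there, and Bst2, Ly6d, Pacsin1, Irf8 and Spib 1.07- to 1.18-fold. Of the 10 striated muscle genes, 6 are well above background on neither array. The NK, plasma cell, myeloid and other markers named in the text are not drawn.

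Other genes of energy metabolism were grouped into lists by function, and the list medians lay between -0.02 and 0.21. The interquartile range of the difference was 0.20 for the members and 0.39 for all genes. It was 0.06 for the 2 cytochromes, 0.17 for mitochondrial ribosomal proteins, 0.18 for carriers and 0.20 for the tricarboxylic acid cycle list. Nuclear regulators had 0.21 and glycolysis 0.25. The widest were assembly factors of complexes III to V at 0.31 and further complex I assembly factors at 0.38. Cytochromes c and c1, the electron carriers around complex III, had 0.15 for Cycs (16104 in CD4+ and 15791 in CD8+ cells) and 0.27 for Cyc1 (7738 and 8244). All 78 mitochondrial ribosomal protein genes were measured and none was 1.5-fold apart, with a median of 0.08 and extremes of -0.42 for Mrps14 (2233 and 1479) and 0.47 for Mrps18b (202.1 and 248.1, and 1.53-fold with median scaling). Mrps27 had 0.43. Of the 23 measured assembly factors of complexes III to V (median -0.02), 1 was past 1.5-fold in each direction. Tmem70, which serves ATP synthase assembly, was 1.54-fold higher on the CD4+ array (2232 and 1286, but 1.39-fold with median scaling), and Cox10, which makes the haem of complex IV, 1.55-fold higher on the CD8+ array (71.0 and 97.4, but 1.28-fold with normexp). The 8 further complex I assembly factors had a median of 0.15, with Tmem186 at 0.43 and Timmdc1 at 0.31.

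Among the 16 genes of the tricarboxylic acid cycle and pyruvate dehydrogenase (median 0.08), Pdha1, the catalytic alpha subunit of pyruvate dehydrogenase, was the only one past 1.5-fold. It was 1.77-fold higher on the CD4+ array (7263 and 3622), but 1.32-fold with the mean over its probes. Ogdh, of the oxoglutarate dehydrogenase complex, had 0.48 (350.8 and 431.7), and 1.53-fold with median scaling. All 8 genes of a list of carriers and channels, which also held Atpif1, were higher on the CD8+ array with a median of 0.12. With normexp, quantile, loess or detected-probe scaling or the series values, only 6 were higher on that array. Slc25a4, an adenine nucleotide translocator that exchanges ATP for ADP across the inner membrane, was 1.71-fold higher there (19878 and 30102) and stayed between 0.68 and 0.92 on the log2 scale in the alternatives. Slc25a3, the phosphate carrier, had 0.28. The 15 glycolysis genes had a median of 0.13 with none past 1.5-fold, Hk1 at 0.58 and Pfkp at 0.50. With median scaling both passed it, at 1.65-fold and 1.56-fold, and Hk1 also after quantile normalization at 1.53-fold.

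The nuclear regulators of mitochondrial genes had a median of 0.09 over 13 genes, and none was past 1.5-fold. Nrf1, a transcription factor known to bind promoters of respiratory chain genes, read 474.4 in CD4+ and 480.6 in CD8+ cells, a difference of 0.20. The coactivator Ppargc1b had 0.53 (712.3 and 910.3), but passed 1.5-fold with median scaling (1.59-fold) and with the mean over probes (1.53-fold). Polg, the mitochondrial DNA polymerase, had -0.31 (1861 and 1330.4). Ppargc1a, the coactivator known from muscle and brown fat, was well above background on neither array.

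The promoters of the members were searched for motifs of such regulators, because many of these genes are known to share them. RefSeq promoter windows (GRCm38.p6) were at hand for 77 of the 93 genes, as 82 windows, and the 250 bases before each start were read on both strands. The NRF1 motif, GCGCA and GCGC with any 1 base between them, was found in 14 of 82 member windows (17.1%) and in 3.74% of all 32851 windows. Its palindromic form, with T as that base, is contained in the first and was found in 4 member windows (4.88%) and in 0.782% of all windows. Member windows were richer in G and C, with a median of 57.0% against 52.4%, and the part of base composition in these shares was not tested. The set of all windows was not limited to genes above background on these arrays, as nearly all members were. The GABPA motif CCGGAAGT was in 3.66% of member windows and 2.88% of all, the YY1 motif AAGATGGC in 1.22% and 1.56%, and the estrogen-related receptor motif TCAAGGTCA in 1.22% and 0.387%. The 4 promoters with the palindrome are shown here because they carry the full form of the motif, 5′ to 3′ on the gene's strand, with the motif in capitals.
Atp5g2: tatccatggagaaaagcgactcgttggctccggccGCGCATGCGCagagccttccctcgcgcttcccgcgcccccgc
Atp5k: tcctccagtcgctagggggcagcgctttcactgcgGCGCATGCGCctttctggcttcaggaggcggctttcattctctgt
Cox6a1: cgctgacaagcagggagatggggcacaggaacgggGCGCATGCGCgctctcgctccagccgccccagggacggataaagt
Ndufaf4: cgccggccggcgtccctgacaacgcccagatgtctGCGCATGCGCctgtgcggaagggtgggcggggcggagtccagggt

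These stretches lie at chr15:102671048-102671124 (minus strand) for Atp5g2, chr5:108434405-108434484 (minus) for Atp5k, chr5:115349076-115349155 (minus) for Cox6a1 and chr4:24897935-24898014 (plus) for Ndufaf4. The motif ended 32, 40, 152 and 103 bases before the start. The differences of these genes were 0.16, 0.21, 0.35 and 0.27, with Cox6a1 saturated as stated. The 13 genes with the wider motif had a median of 0.02, from -0.18 to 0.35, and the 62 measured genes with a window but without it a median of 0.03. The members without a window included Cox6a2, Cox4i1 and Uqcrq.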

How the data were processed

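Total RNA was amplified, labelled with Cy3 and put on 1 array for each cell type. The deposited scanner files hold each spot's intensity, made with Feature Extraction 10.1.1.1 per the file headers, whereas version 9.1 stands in the submitters' processing notes. The flags for saturation and background are the software's, and the authors' value table equals the median pixel intensity at 45018 of 45018 spots of each array.

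Outlier spots (99 and 92) and controls were left out. The log2 of the processed intensity in the deposited files was taken, less each array's 75th percentile. A gene took its brightest probe above background on both arrays. Each member had 1 spot per probe, so its error is that of the software. Probes were named through RefSeq accessions (GRCm38.p6, names alone, since the headers name another build), which matched 24840 probes. The table lists 19 pseudogenes under these prefixes, and probes may not tell them from their parents.

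Members, lists, thresholds and alternatives were chosen with earlier results of these data known. Named were members past 1.5-fold (25% apart, as fewer than 10 passed), undetected or saturated, the 3 extremes per complex and direction, isoforms, probes differing by over 0.5 and the 2 largest per list. Some further members were added after their values were seen. Alternatives were normexp (offset 50), median, detected-probe, quantile and loess (span 0.3) scaling, the authors' series values, the mean over probes, saturated probes left out, outliers kept, no filter and brighter probes. The computation was tested on simulated data. The software was limma 3.58.1 in R 4.3.3, and pandas 2.3.3 with numpy 2.4.6 in Python 3.11.15. Members not named are covered by ranges and counts.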

Additional observations from a re-analysis of the deposited data

How the results depend on the processing

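With median scaling, the median over all genes went from 0.02 to 0.17 and every group's with it, to 0.17 for all members, 0.17, 0.38, 0.21, 0.21 and 0.18 for complexes I to V and 0.15 for the assembly factors. The pathway medians became 0.35 for cytochromes c and c1, 0.12 and 0.29 for the assembly factors of complexes III to V and the other complex I factors, 0.24 for regulators, 0.23 for the tricarboxylic acid cycle, 0.26 for carriers, 0.28 for glycolysis and 0.22 for mitochondrial ribosomal proteins. Complex V was at -0.081 after quantile normalization, where 37 members were higher on the CD8+ array. With brighter probes alone, which drop Cox6a2, 0 members remained past 1.5-fold or 2-fold on the CD4+ side. The count of members at least 25% apart, 3 in each direction, became 17 and 1 (CD8+ and CD4+) with median scaling, beside 27.3% and 11.5% of all genes. It became 1 and 6 with normexp (11.7% and 11.3% of all genes) or the series values (12.4% and 12.3%), and 1 on the CD8+ side with loess (14.2%) or detected-probe scaling (12.3%). Of 626 values of single genes under alternatives, 4 moved by over the 0.23 SD between probes: Ndufv3 and Pdha1 with the mean over probes, and Cox10 with normexp (0.36) and the series values (0.40). No paired analysis was possible because each cell type had 1 array. Saturation limits Cox6a1, Uqcrh and Atp5e, and signal near background limits Cox4i2. It also limits the markers Cd209a, Ncr1, Itgam and Sdc1 on the CD8+ array.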
